A study of Rattus norvegicus with 15 samples.

Results

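Astrocyte marker genes were examined in neurons cut out of the rat midbrain by laser capture microdissection, where tissue is lifted from a section under a microscope. The genes were Gfap, Aqp4, Slc1a2, Slc1a3, Gja1, S100b, Aldh1l1 and Glul, chosen by name, and every probe set (a group of short probes against 1 transcript) carrying 1 of these symbols in the platform annotation was used. That gave 17 of the 8799 probe sets, for 7 of the 8 genes, since no probe set carried the symbol Gfap. Of the 17, 12 probe sets for 6 genes were bright enough to be tested, and the other 5, among them the only one for Gja1, are given by their values alone. The study has 2 groups: total RNA of rat neurons from the substantia nigra pars compacta (SNC, 8 arrays, numbered 1 to 8) and from the ventral tegmental area (VTA, 7 arrays, numbered 1 to 6 and 8). The labels give no strain, age, sex, treatment or number of animals, nor how neurons were recognised. The p-values measure the spread between arrays, which may be technical.

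Astrocytes are the glial cells that wrap synapses and vessels in the midbrain as elsewhere in the brain. They take up glutamate through the transporters encoded by Slc1a2 and Slc1a3 and turn it into glutamine with glutamine synthetase, the product of Glul. They move water through aquaporin 4 (Aqp4), couple to each other through gap junctions of connexin 43 (Gja1), and hold the folate enzyme Aldh1l1 and the calcium-binding protein S100b. Their processes lie against neuronal cell bodies, so their RNA can be taken along when a neuron is cut from a section. Glul and S100b are also made by oligodendrocytes, the myelin-forming glia, and are therefore less particular to astrocytes than Aqp4 or Gja1.

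The deposited values were 1 linear intensity per probe set and array, with a 2% trimmed mean of 150.2 on every array and a median between 37.9 and 46.7. Differences are SNC minus VTA in log2(intensity + 16), from limma over 5244 probe sets, with p-values adjusted over all of them by Benjamini-Hochberg. Probe sets under a mean signal of about 26.3 were left out. Of all probe sets tested, 1.98% (104) passed the adjusted threshold of 0.05, of which 44 (0.839%) were higher in SNC and 60 (1.14%) in VTA; with arrays centred on their medians that split was 67 and 37. The arrays of both regions did not overlap in 0.858% (45). The captures carried strong dopamine neuron signal: Th, tyrosine hydroxylase, averaged 6615 ± 527 in SNC and 7193 ± 770 in VTA (SD, n = 8 and 7). Slc6a3, the dopamine transporter, averaged 7245 ± 603 in SNC and 5782 ± 979 in VTA (difference 0.34, adjusted p = 0.193 in limma). In bulk RNA of this kind, fewer cells of a type and less RNA per cell cannot be told apart.

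Neither region was called higher for any astrocyte marker. Of the 12 probe sets tested, 0 passed in limma, beside 1.98% of all probe sets, and 0 had an unadjusted p under 0.05, beside 15.4% of all. An exact Wilcoxon test also called 0 of them. The ranges of SNC and VTA arrays overlapped for all 17 probe sets. The difference was below 0 in 9 of the 12 and above 0 in 3, with a median of -0.08, where the median over all 5244 probe sets was -0.04 and 56.7% were below 0.

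**Figure D1:**
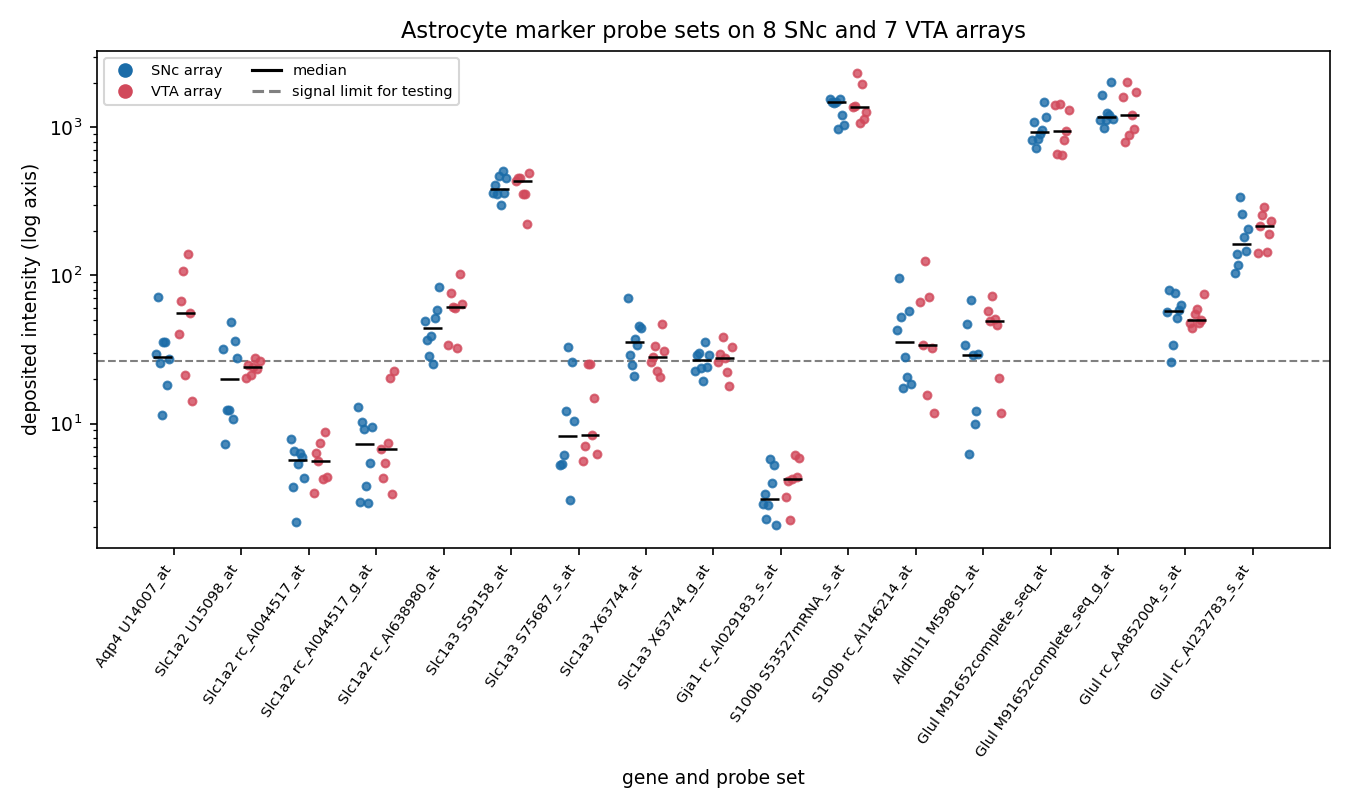
Deposited intensity (log axis) of the 17 astrocyte marker probe sets, with 1 point per array (8 SNC, 7 VTA) and a bar at each group's median. The dashed line is the mean signal of 26.3 below which probe sets were not tested. The SNC and VTA points overlap for every probe set, and those of Gja1 all lie between 2.06 and 6.13.

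The glutamate transporters differed in how well they were measured. Slc1a3, the transporter also called GLAST, had a signal from 298 to 503 in SNC, with a median of 384, by its brightest probe set, S59158_at. In VTA the same probe set ran from 221 to 489 with a median of 431. The groups lay on top of each other, apart from VTA 6 at 221, which stood below all other arrays. The difference was 0.04 (SE 0.17, adjusted p = 0.937 in limma), and its 95% interval, from -0.31 to 0.39, leaves room for SNC being up to 1.24-fold lower or 1.31-fold higher. The 2 dimmer Slc1a3 probe sets tested had differences of 0.22 (X63744_at, SE 0.17, adjusted p = 0.584) and -0.03 (X63744_g_at, SE 0.13, adjusted p = 0.937). Both lay close to the lower limit of testing, with means between 26.7 and 38.3 in either region. The remaining one, S75687_s_at, was too dim to test, at 3.03 to 32.9 in SNC and 5.59 to 25.3 in VTA.

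Slc1a2, the transporter also called GLT-1 and the main one of forebrain astrocytes, gave little signal by any of its 4 probe sets. Its brightest, rc_AI638980_at, ran from 25.4 to 84 in SNC, with a median of 44, and from 32.4 to 102 in VTA, with a median of 60.9. SNC 8 and VTA 6 were the highest arrays of their regions, and 5 of 7 VTA arrays were above the SNC mean. The difference was -0.30 (SE 0.21, 95% interval -0.75 to 0.14, adjusted p = 0.538 in limma). The other 3 were not tested. Of these, rc_AI044517_at stayed between 2.15 and 8.83 on all 15 arrays and rc_AI044517_g_at between 2.89 and 22.8. U15098_at was spread from 7.24 to 48.6 over the SNC arrays and lay within 20.4 to 27.5 in VTA.

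Glul had strong signal in both regions by the pair of probe sets made from the same sequence record. M91652complete_seq_g_at ran from 987 to 2007 in SNC with a median of 1171, and from 800 to 2014 in VTA with a median of 1215. The highest arrays were SNC 7 and VTA 3, which were alike at 2007 and 2014. The difference was 0.03 (SE 0.21, 95% interval -0.41 to 0.47, adjusted p = 0.964 in limma). Its partner M91652complete_seq_at gave -0.02 (SE 0.20, adjusted p = 0.981), and rc_AA852004_s_at, at means of 55.6 and 54.2, gave -0.01 (SE 0.17, adjusted p = 0.992). The remaining Glul probe set, rc_AI232783_s_at, averaged 186 ± 78.5 in SNC and 210 ± 55.3 in VTA, a difference of -0.21 (SE 0.22, adjusted p = 0.704). The interval of each Glul probe set spanned 0.

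Aqp4, the water channel of astrocyte endfeet, had the largest difference of the tested markers, and it did not pass. Its probe set U14007_at read 29.5, 71.6, 25.5, 11.5, 35.7, 35.7, 18.1 and 27.1 on SNC 1 to 8. On VTA 1 to 6 and VTA 8 it read 40.4, 66.8, 107, 21.2, 139, 55.7 and 14.2. Of the 8 SNC arrays 1, SNC 2, was above the VTA mean on the log2 scale, while VTA 4 and VTA 8 lay as low as the lower SNC arrays. The difference was -0.60 (SE 0.31, 95% interval -1.25 to 0.05, unadjusted p = 0.0694 and adjusted p = 0.363 in limma). The spread between arrays was wide: the residual SD of Aqp4 was 0.69 log2 units, at the 95.1 percentile of all probe sets tested, whose median was 0.36. The interval reaches to a 2.38-fold lower value of intensity + 16 in SNC. For so dim a probe set the size depends on the offset, and it was -0.78 with an offset of 1 and -0.36 with an offset of 64.

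Gja1, or connexin 43, was near the bottom of the scale on every array. Its probe set rc_AI029183_s_at ran from 2.06 to 5.75 in SNC and from 2.25 to 6.13 in VTA, so no array came near the lower limit of testing. A single probe set cannot tell a transcript that is scarce from probes that respond weakly.

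Aldh1l1, the folate enzyme used as a general astrocyte marker, was dim and uneven. M59861_at read 33.7, 46.9, 6.25, 67.8, 29, 9.91, 12.1 and 29.5 on SNC 1 to 8, and 57.4, 49.2, 72.2, 50.5, 46, 20.3 and 11.7 on the VTA arrays in order. Of 7 VTA arrays, 5 were above 40, against 2 of 8 in SNC. The difference of -0.44 did not pass (SE 0.29, 95% interval -1.04 to 0.17, adjusted p = 0.5 in limma), and the residual SD was 0.63.

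S100b, the calcium-binding protein, was well measured by S53527mRNA_s_at. It read 1563, 1477, 1463, 1481, 967, 1556, 1202 and 1040 on SNC 1 to 8, and 1375, 1391, 2312, 1065, 1951, 1135 and 1266 on the VTA arrays in order. Within SNC 5 arrays lay between 1463 and 1563 and 3, SNC 5, SNC 7 and SNC 8, below them, while VTA 3 and VTA 5 exceeded all other arrays. The difference was -0.13 (SE 0.18, 95% interval -0.50 to 0.24, adjusted p = 0.781 in limma). The dimmer S100b probe set, rc_AI146214_at, gave -0.12 with a residual SD of 0.73 (SE 0.33, adjusted p = 0.899), and it too was highest on VTA 3, at 125.

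**Figure D2:**
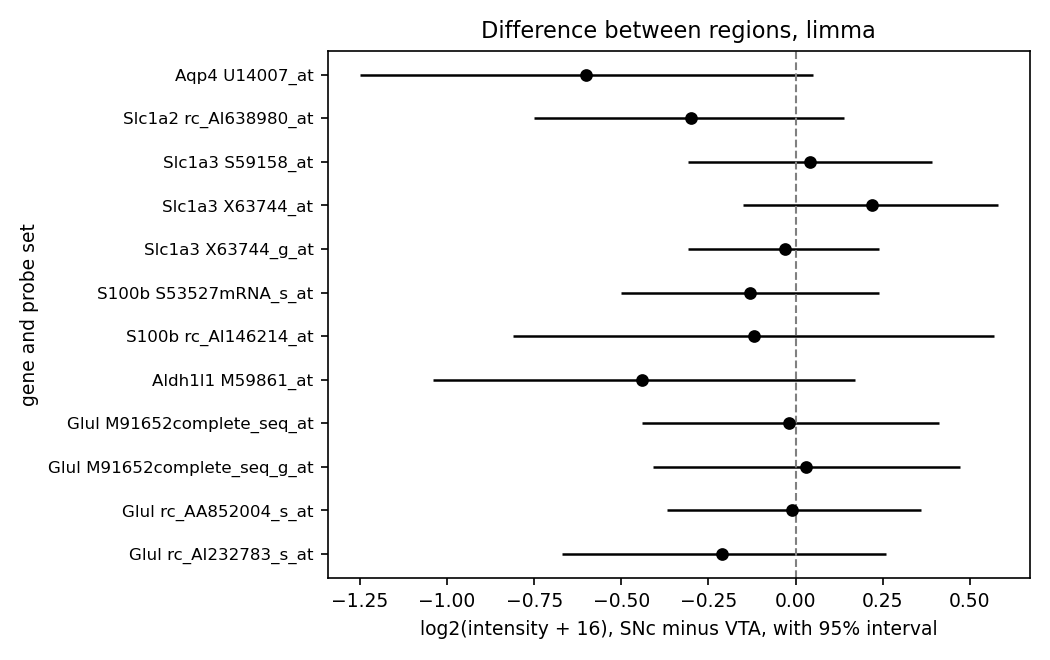
Difference in log2(intensity + 16), SNC minus VTA, for the 12 tested astrocyte marker probe sets, with points for the limma estimate and lines for its 95% interval (8 SNC and 7 VTA arrays). Every interval spans 0, and that of Aqp4 reaches from -1.25 to 0.05.

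Astrocyte RNA carried along in varying amounts would raise and lower these markers together from array to array, and their co-variation was measured for that reason. Each region was first centred on its own mean, so that a difference between regions could not make a correlation, and 1 probe set per gene was used, the brightest. Over the 15 pairs of the 6 tested genes the median Pearson's r was 0.09, with a range from -0.30 to 0.57, and 9 pairs were above 0. Aqp4, Aldh1l1 and Slc1a2 were dim, with means between 29.4 and 63.5 in either region. Whether this lowered their r was not tested. Of the brighter genes, S100b and Slc1a3 had r 0.38, Glul and S100b 0.31, and Glul and Slc1a3 0.27. Within SNC both of these pairs with Glul were below 0, at -0.16 and -0.14. Every pair with r below 0 over all arrays included Aqp4 or Slc1a2, as did the pair with the highest r. Over all pairs of the 5244 probe sets the median was 0.006, 50.8% were above 0, and the 5th and 95th percentiles were -0.49 and 0.50. The markers of 7 oligodendrocyte genes, by the same measure, had a median r of 0.37 over 21 pairs. Their means were 199 or more in either region, so the 2 medians, 0.37 and 0.09, do not compare genes of like brightness. The other lists lay lower, at 0.05 over 496 pairs of further astrocyte genes, 0.07 over 10 pairs of neuron markers, 0.07 over 28 pairs of dopamine neuron markers, 0.15 over 10 pairs of vessel markers and -0.39 for the 1 pair of microglia markers.

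Aqp4 and S100b were the pair most alike. Pearson's r was 0.57 and Spearman's rho 0.45 over 15 arrays (permutation p = 0.0539 and 0.124, adjusted over 15 pairs 0.717 and 0.731). Within VTA r was 0.79 (exact permutation p = 0.0355, n = 7), and within SNC it was 0.06 (exact permutation p = 0.875, n = 8). The difference between the regions' correlations was not tested. Without VTA 5 and VTA 8, the arrays farthest from the median of Aqp4, r was 0.48. None of the 15 pairs passed after adjustment, and Slc1a2 had a negative r with each of the other 5 genes, from -0.30 with S100b to -0.03 with Slc1a3. That sign did not hold throughout: with Slc1a3 rho was 0.19 and r was 0.52 within SNC (exact permutation p = 0.184, n = 8), and with Glul r was 0.17 within SNC (exact permutation p = 0.673, n = 8).

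Probe sets annotated to the same gene were set against each other for comparison. That they read the same transcript rests on the annotation and was not tested. Both probe sets of the Glul sequence record rose and fell together, with r 0.90 and rho 0.86 (permutation p = 0.00014 and 0.00058, adjusted over 10 pairs 0.0014 and 0.0058), and r was 0.85 without SNC 7 and VTA 3. The Slc1a3 probe sets S59158_at and X63744_g_at had r 0.79 and rho 0.67 (permutation p = 0.00099 and 0.00869, adjusted 0.00495 and 0.0434), and 0.58 without SNC 5 and VTA 6. The S100b pair had r 0.63 and rho 0.55 (permutation p = 0.0217 and 0.0527, adjusted 0.0722 and 0.176), and 0.45 without SNC 2 and VTA 3. For the other 7 of 10 pairs r ran from -0.36 to 0.44 and none passed. By their names the Glul pair, like X63744_at and X63744_g_at, comes from 1 sequence record, so such probe sets are not independent. X63744_at had r -0.36 with S59158_at and -0.23 with X63744_g_at, and these were -0.07 without SNC 5 and VTA 6 and 0.23 without SNC 1 and VTA 6. Aqp4, Aldh1l1 and Slc1a2 had no second tested probe set to compare.

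S100b was the marker most closely related to those of other cell types. Each of the 6 genes was set against the mean of 5 marker lists and against the 3' to 5' signal ratios of actin and of GAPDH, a measure of RNA integrity, giving 42 relations. S100b rose with the 7 oligodendrocyte markers, with r 0.82 and rho 0.81 (permutation p = 0.00079 for each, adjusted over the 42 relations 0.0332 for each). The correlation was 0.96 within VTA (exact permutation p = 0.000595, n = 7) and 0.53 within SNC (exact permutation p = 0.18, n = 8), and 0.68 without VTA 3 and VTA 4. All 7 genes had a positive r with S100b, led by Mag (0.77), Mobp (0.73) and Mbp (0.69), which encode myelin proteins. Leaving out any 1 array kept r between 0.72 and 0.87, but the adjusted p exceeded 0.05 without any of 10 arrays (SNC 1, 4, 5 and 6 and VTA 1 to 6) and reached 0.165 without VTA 3.

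S100b was lower on arrays with a higher mean of the dopamine neuron markers, but this did not pass under every setting. The markers in that mean varied little together, with a median r of 0.07 over 28 pairs. For the mean of the 8 genes r was -0.74 and rho -0.70 (permutation p = 0.0021 and 0.00457, adjusted 0.0441 and 0.096), so the second missed the threshold. The correlation was -0.77 within SNC (exact permutation p = 0.0223, n = 8) and -0.73 within VTA (exact permutation p = 0.0516, n = 7), and -0.63 without SNC 3 and VTA 3. All 8 genes had a negative r, from -0.52 for Ddc, the second enzyme of dopamine synthesis, to -0.01 for Pitx3, a transcription factor. For Th it was -0.12. The r was -0.44 (adjusted p = 0.927) with arrays centred on their medians, -0.58 (adjusted p = 0.448) without VTA 3, and -0.70 (adjusted p = 0.178) without SNC 5. Only without SNC 7 or VTA 8 did the adjusted p stay under 0.05 when 1 array was left out. The dimmer S100b probe set gave 0.48 with the oligodendrocyte markers and -0.63 with the dopamine neuron markers (adjusted p = 0.956 and 0.679).

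**Figure D3:**
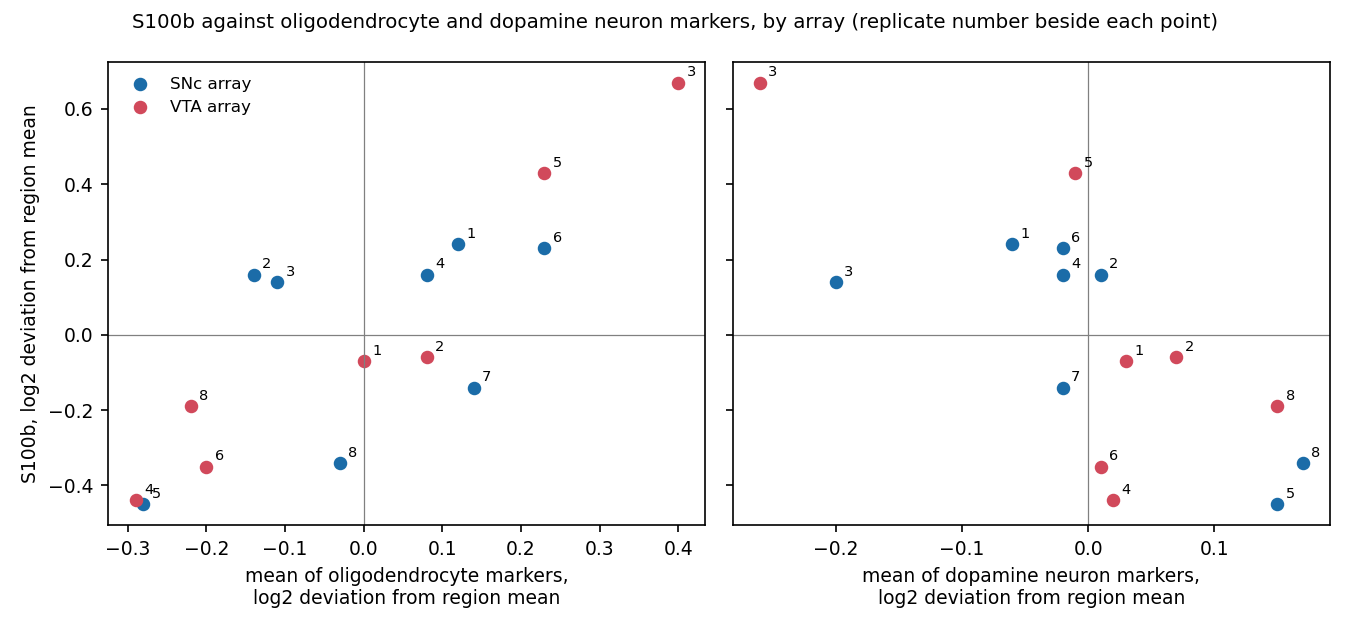
S100b on each array (log2 deviation from its region's mean) against the mean of 7 oligodendrocyte markers (left) and of 8 dopamine neuron markers (right), with 1 point per array and the replicate number beside it. VTA 3 has the highest S100b (0.67), the highest oligodendrocyte mean (0.40) and the lowest dopamine neuron mean (-0.26), and the trend runs up on the left and down on the right.

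None of the other 5 astrocyte markers had a relation that passed after adjustment over the 42. Aqp4 had r 0.47 and rho 0.40 with the oligodendrocyte markers (permutation p = 0.127 and 0.183, adjusted 0.895 and 0.942), with 0.86 within VTA (exact permutation p = 0.0165, n = 7) and -0.40 within SNC (exact permutation p = 0.327, n = 8). It was 0.24 without VTA 3 and VTA 4. Slc1a2 had the largest r with an RNA control ratio, -0.43 with that of actin, with rho -0.47 (permutation p = 0.105 and 0.0747, adjusted 0.895 and 0.784). It was -0.37 within SNC (exact permutation p = 0.368, n = 8), -0.84 within VTA (exact permutation p = 0.0218, n = 7) and -0.58 without SNC 2 and SNC 5. The actin ratio ran from 6.14 to 15.4 over the arrays, and that of GAPDH from 2.94 to 6.82. Both thus had more signal at the 3' end than at the 5' end on every array. Whether this lowered the signal of the dim probe sets was not tested.

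**Figure D4:**
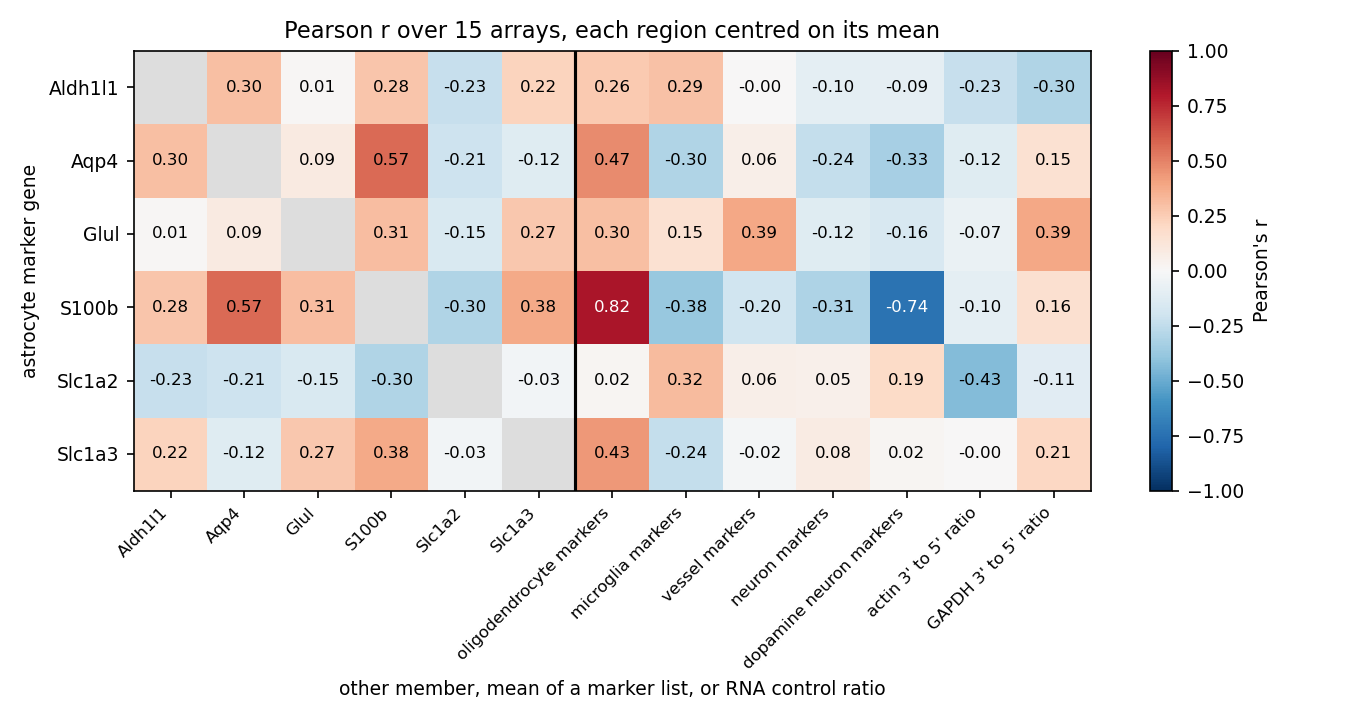
Pearson's r over 15 arrays, each region centred on its mean, between the 6 tested astrocyte markers and each other (left of the line), and with the means of 5 marker lists and 2 RNA control ratios (right of the line); grey cells are a gene with itself. The cells that stand out are S100b with oligodendrocyte markers (0.82), S100b with dopamine neuron markers (-0.74) and S100b with Aqp4 (0.57).

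The genes most like each marker across the arrays were picked as the 3 highest r among 3215 other genes, so their values are high by choice and carry no test. For S100b they were Id3, an inhibitor of helix-loop-helix transcription factors (0.86), Apod, apolipoprotein D (0.81), and Ptgds, a prostaglandin D synthase (0.77). For Aqp4 they were Rps3a, a ribosomal protein (0.84), Zcchc8 (0.82) and Enpp2, or autotaxin (0.81). Within SNC these were 0.91, 0.30 and 0.75 in order, and within VTA 0.81, 0.99 and 0.89. Glul was most like Loxl1, a lysyl oxidase (0.90), Id2 (0.76) and Mpc1, a mitochondrial pyruvate carrier (0.76). Slc1a3 was most like Ptprz1, a receptor phosphatase, Tns3 and Cdk18, each at 0.77. Slc1a2 was most like Gucy1b1, a subunit of soluble guanylate cyclase (0.83), Scn11a (0.78) and Eed (0.77), and Aldh1l1 was most like Gfra2, a receptor of neurturin (0.75), Akr7a2 (0.74) and Exoc2 (0.71). No gene was among the 3 of more than 1 marker, and Id3 and Ptprz1 also belong to the wider astrocyte list.

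Because S100b and Id3 followed each other most closely of the S100b neighbours, the 250 bases before the start of each gene are shown, 5′ to 3′ on the gene's strand, from RefSeq on the GRCr8 build. The S100b window is chr20:12381082-12381331 on the minus strand and that of Id3 is chr5:153656041-153656290 on the plus strand. Capitals mark the letters TTGGC or their reverse complement, a short motif bound by nuclear factor I.
S100b: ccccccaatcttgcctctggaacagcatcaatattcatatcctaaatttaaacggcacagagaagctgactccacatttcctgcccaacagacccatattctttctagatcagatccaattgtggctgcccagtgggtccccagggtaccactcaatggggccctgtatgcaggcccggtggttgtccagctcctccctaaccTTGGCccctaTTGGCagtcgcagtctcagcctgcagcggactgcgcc
Id3: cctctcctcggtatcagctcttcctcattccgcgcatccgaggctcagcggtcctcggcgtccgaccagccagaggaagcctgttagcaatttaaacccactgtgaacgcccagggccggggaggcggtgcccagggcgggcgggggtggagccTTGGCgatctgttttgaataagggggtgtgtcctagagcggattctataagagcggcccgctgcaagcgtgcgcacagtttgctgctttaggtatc
S100b had 2 matches, starting 47 and 37 bases before the gene, and Id3 had 1, starting 96 bases before it. At least 1 match was found in 40.3% of 33469 rat promoter windows of that length, so the letters are common. Of the other motifs searched on both strands, 5 in all, none was found in either window. ACAAAG, the core letters bound by SOX factors, was in 16.3% of all windows, and AACAAT, a variant of it, was in 10.3%. TATAAA, the TATA box, was in 12.9%. The E-box CACGTG was in 5.59%, and TTTGCAT, part of the octamer motif, was in 4.08%. A match describes the letters and no more.

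A wider list of 50 astrocyte genes was read in the same way. Of these 36 had a probe set and 32 were tested, and 1 was called, higher in SNC, beside 2.17% of all 3221 genes tested (0.993% higher in SNC and 1.18% higher in VTA). It was Ntsr2, a neurotensin receptor known from astrocytes, at 381 ± 91.6 in SNC and 240 ± 37 in VTA (difference 0.62, SE 0.15, adjusted p = 0.0428 in limma). Its SNC arrays lay between 290 and 525 and its VTA arrays between 192 and 287, so the regions nearly met but did not overlap. Of all probe sets tested, 0.858% did not overlap. The call held on leaving out SNC 7, SNC 8 or VTA 8 and was lost on leaving out any of the other 12 arrays, with an adjusted p of 0.0899 without VTA 2. Next by p were Maob, a monoamine oxidase, at 112 ± 35.9 in SNC and 182 ± 63.7 in VTA (-0.61, adjusted p = 0.137), and Pygb, a glycogen phosphorylase (0.38, adjusted p = 0.251). The median difference of the 32 genes was -0.03, with 14 above 0 and 18 below, where that of all genes was -0.04.

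Genes known from reactive astrocytes had 1 call. Of 8 tested, 1 was called higher in VTA and 0 higher in SNC, with 7 differences below 0 and a median of -0.21. Over all genes 1.18% were called higher in VTA, 55.6% were below 0, and the median was -0.04. The called gene was Serping1, an inhibitor of complement proteases, at 26.6 ± 18.5 in SNC and 87 ± 35.2 in VTA (difference -1.33, adjusted p = 0.0091 in limma). Its SNC arrays ran from 4.32 to 54.9, with a mean close to the lower limit of testing, and its VTA arrays from 48.8 to 154. For so dim a probe set the size depends on the offset. The Serping1 difference was -1.93 with an offset of 1 and -0.73 with an offset of 64, and was called with both (adjusted p = 0.0379 and 0.0101 in limma). Hspb1, a small heat shock protein, and Timp1, a protease inhibitor, gave -0.63 and -0.68 (adjusted p = 0.07 and 0.327 in limma). Without SNC 7 Hspb1 was called, at -0.73 (adjusted p = 0.0201 in limma). The Hspb1 probe sets disagreed in sign. Vessel cells and neurons also express several of these genes, and Vim is also in the wider astrocyte list, so the list is not particular to astrocytes.

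The genes that act beside Slc1a2, Slc1a3 and Glul in glutamate handling had 1 call among 7 tested, beside 2.17% of all genes (0.993% higher in SNC). It was Gad1, a GABA-making enzyme, which was higher in SNC at 754 ± 180 against 279 ± 123 (adjusted p = 0.00154 in limma). Gad2, the other GABA-making enzyme of the list, was not called (0.23, adjusted p = 0.723 in limma). Got2 and Got1, the mitochondrial and cytosolic aspartate aminotransferases, gave 0.46 and 0.35 (adjusted p = 0.088 and 0.208 in limma), and Got2 passed with an offset of 64 (adjusted p = 0.0398) and with a trended, robust variance (0.045). Of the 7 genes 6 were above 0, with a median of 0.35, while 55.6% of all genes were below 0 and their median was -0.04.

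Markers of other cells give the setting of the astrocyte values. Of 7 oligodendrocyte markers tested 0 were called in limma, where 2.17% of all genes were, and 1 had an unadjusted p under 0.05, where 15.5% of all did. Of the 7, 6 were below 0 and the median was -0.17, beside 55.6% and -0.04 over all genes. The list's summed intensity ran from 6184 to 10342 in SNC and from 8436 to 12748 in VTA. Mobp and Mbp gave -0.53 and -0.36 (adjusted p = 0.248 and 0.331 in limma), with Mbp at 3784 ± 899 in SNC and 4838 ± 983 in VTA, so myelin transcripts were plentiful in captures of both regions. Of 10 microglia markers only 2 were tested, Cx3cr1 and Ptprc, and their summed intensity stayed between 57.6 and 116 on all arrays. The 5 vessel markers tested had 0 calls in limma, beside the same 2.17%, with 1 unadjusted p under 0.05 and a median of -0.14. Their summed intensities ran from 339 to 841 in SNC and from 460 to 1017 in VTA. Of 8 dopamine neuron markers 1 was called, Gch1, higher in VTA (-1.34, adjusted p = 0.00163 in limma). Of 5 neuron markers 1 was called, Nefm, higher in VTA (-0.69, adjusted p = 0.0487 in limma). Leaving out any of 13 arrays lost the Nefm call. Of all genes 1.18% were called higher in VTA. The summed intensity of the 6 tested astrocyte markers ran from 2605 to 3686 in SNC and from 2444 to 5022 in VTA. Most of that sum was S100b and Glul, which averaged 1344 and 1310 in SNC and 1499 and 1319 in VTA, while Aqp4, Aldh1l1 and Slc1a2 averaged at most 63.5 in either region. The part of these cell types in the Aqp4, Aldh1l1 and Slc1a2 differences was not tested.

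VTA 3 combined the highest signals of some markers but not of all. By the brightest probe sets it had the highest value of any array for S100b (2312), Aldh1l1 (72.2) and Glul (2014). Its Aqp4 value (107) was the second highest. The other Glul probe sets were highest on SNC 7 (M91652complete_seq_at, 1479), SNC 2 (rc_AA852004_s_at, 79.3) and SNC 4 (rc_AI232783_s_at, 336). Slc1a3 was 456 on VTA 3 and highest on SNC 6 (503), and Slc1a2 was 60.9 on VTA 3 and highest on VTA 6 (102). VTA 5 was highest for Aqp4 (139) and second for S100b (1951), but lay within the other arrays for Aldh1l1 and Glul. VTA 8 was among the lowest for Aqp4 (14.2) and Aldh1l1 (11.7) while its Glul was the third highest (1739). Without VTA 3 the differences were -0.46 for Aqp4, -0.33 for Aldh1l1, -0.015 for S100b and 0.14 for Glul.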

How the data were processed

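The deposited table holds 1 linear intensity per probe set and array of an Affymetrix rat expression array, scaled by the authors to a common level, as the equal trimmed means show. Its software and settings were not given in the sources used here. Genes were named from the platform annotation, where 7006 of 8740 probe sets other than the 59 controls had 1 symbol, 308 several and 1426 none. From the deposited intensities log2(intensity + 16) was computed, and probe sets in the lowest 40% by mean were left out. SNC and VTA were compared with limma 3.58.1 in R 4.3.3, without a block, over all 5244 remaining probe sets. Correlations (SciPy 1.17.1) used region-centred values, 100000 permutations within regions and exact permutations within 1 region, two-sided, with Benjamini-Hochberg adjustment. A gene was represented by its brightest probe set. Genes named were all members, up to 3 of each list by smallest p, Th, Slc6a3 and Ddc, and the 3 genes most like each marker by r. Mag and Pitx3, named for their r with S100b, and Gad2, named beside Gad1, were chosen after their values were seen. The members and lists were chosen with earlier results of these data known. The fit was tested on simulated data. Arrays give no read depth; their number, 8 and 7, limits the precision. Other offsets, filters, scalings, tests and left-out arrays were tried. The replicate numbers were not taken as pairs.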

Additional observations from a re-analysis of the deposited data

Results flagged for a closer look

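The Slc1a3 probe set S59158_at had 1 array that stood apart from its group: VTA 6 read 221, while the other VTA arrays lay between 357 and 489. On the log2 scale used for the differences, the gap to the nearest array was 0.599 of the VTA range. That was above Dixon's critical value of 0.568 for 7 arrays. The flag holds for the log2 scale only and is not claimed for the intensities printed here. It was 1 of 34 groups examined, and chance flags about 1 in 20 groups.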

How the results depend on the processing

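No astrocyte marker probe set passed under any of 26 alternative settings, and the smallest adjusted p under them was 0.181, for Aqp4, whose difference stayed between -0.80 and -0.40 when 1 array was left out. The count over all probe sets, 104, was 60 with an offset of 1 and 67 with an exact Wilcoxon test, and ran from 56 to 115 with 1 array left out (below 70 without SNC 2, 3 or 4 or VTA 1, 2, 3, 5 or 6). The sign changed in 29 of 299 member values, in 6 probe sets whose differences lay near 0. For Glul, M91652complete_seq_at gave 0.077 with median centring, M91652complete_seq_g_at gave -0.0073 with quantile normalization and -0.049 as the mean of the gene's probe sets, and rc_AA852004_s_at gave 0.093 with quantile normalization, 0.085 with median centring and 0.0057 with an offset of 64. Slc1a3 X63744_g_at gave 0.063 with quantile normalization and 0.061 with median centring, which moved the median of all probe sets from -0.04 to 0.05, and Ddc gave -0.0093 with quantile normalization. With 1 array left out, the ranges were -0.11 to 0.073, -0.075 to 0.14 and -0.072 to 0.10 for these Glul probe sets in order, -0.30 to 0.092 for S100b rc_AI146214_at, -0.086 to 0.10 for Slc1a3 S59158_at and -0.09 to 0.024 for X63744_g_at. The S100b relations had alternatives chosen after seeing the data. With oligodendrocyte markers r was 0.48 (adjusted p = 0.956, permutation) by the dimmer probe set and 0.64 (0.475) by the mean of both, and 0.72 to 0.87 with 1 array left out. With dopamine neuron markers it was -0.74 (0.0733) after quantile normalization, -0.44 (0.927) after median centring, -0.74 (0.0523) with an offset of 64, -0.63 (0.679) and -0.72 (0.116) by the dimmer probe set and the mean of both, and -0.79 to -0.58 with 1 array left out. The median r of member pairs ran from -0.03 to 0.20 with 1 array left out. The causes were not tested. Ntsr2 was not called with an offset of 1 (adjusted p = 0.0566 in limma), and Hspb1 was called with an offset of 64 (adjusted p = 0.041), as was Got2 (0.0398), which also passed with a trended, robust variance (0.045). Same-numbered arrays of both regions had correlations of 0.044 to 0.254, 5 of 7 above 0.1, against -0.169 to 0.130 (median -0.026) for 42 pairs of different numbers, and 7 of 14 arrays correlated best with their own number. All 7 were above 0, but as not all exceeded 0.1 and the labels name no shared source, the numbers were not used as pairs. Whether they mark a shared source is not known. The permutation tests of correlations shuffled arrays within each region and took no account of the numbers. With the replicate number as a fixed block 99 probe sets passed, with a random block 153, and 0 members in either. The fixed replicate block gave -0.062 for Glul M91652complete_seq_g_at and an adjusted p of 0.0663 for Ntsr2 in limma. Hspb1 was called under both, with an adjusted p of 0.0414 with the fixed and 0.0391 with the random block in limma. No VTA array has the number 7, so under the fixed block SNC 7 does not enter the difference. The fixed-block differences of Hspb1 (-0.73) and Glul M91652complete_seq_g_at (-0.062) equalled those without SNC 7. A call lost under the block is not a weaker effect.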
